A study of Mus musculus with 10 samples.

Results

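The cells described here are CD4 T cells from mouse colorectal carcinoma that carry transcripts of T follicular helper (Tfh) cells. They were picked by their own transcripts: a kept cell needed a productive T cell receptor beta (TRB) contig in the same tumour, no UMI of Cd8a, Cd8b1, Foxp3, Il17a, Il17f or Il22, and either at least 1 Il21 UMI or UMIs of both Tox2 and Tbc1d4. A UMI is a molecular tag that counts 1 captured transcript. The rule found 734 Tfh-like cells among 16169 kept cells with a TRB contig. They numbered 190 and 183 in the 2 tumours given S. chamaejasme plus anti-PD-1 therapy (combination), 143 in the 1 tumour given S. chamaejasme, and 58 and 160 in the 2 untreated tumours. The other 10087 conventional CD4 T cells meet every clause of the rule but the last, and are the comparators throughout.

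Each of the 5 tumours gave 1 droplet RNA library, from the 5′ end of transcripts, and 1 receptor library. S. chamaejasme is the plant Stellera chamaejasme, and anti-PD-1 is an antibody against the receptor encoded by Pdcd1. The labels give no mouse strain, age, dose or tumour model, do not say whether 2 libraries of a group came from separate animals, and hold no group with anti-PD-1 alone. p-values therefore measure the spread between these libraries, which may be technical.

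Tfh cells help B cells make high-affinity antibody. The transcription factor Bcl6 directs their program, the chemokine receptor CXCR5 takes them to the B cell follicle, and they give help through interleukin-21 (IL-21), interleukin-4 and CD40 ligand. Cells with the same program, often rich in PD-1 and ICOS, are also found in tumours, where IL-21 acts on B cells and CD8 T cells. Of the genes in the rule, Tox2 encodes an HMG-box factor known to act in Tfh differentiation and Tbc1d4 a Rab GTPase-activating protein of glucose transport. In GRCm38 (mm10), Il21 lies at chr3:37222759-37232636 on the minus strand, Tox2 at chr2:163203125-163324170 on the plus strand, and Tbc1d4 at chr14:101442360-101609191 on the minus strand.

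The receptors of these cells were not used by the rule beyond the presence of a TRB contig, and their sequences show the clones that the cells belong to. A clone here is all kept cells of a tumour with the same TRBV segment, TRBJ segment and CDR3 nucleotide sequence, the stretch that spans the V-to-J joint and contacts antigen. TRB lies on chromosome 6 and the alpha chain locus TRA on chromosome 14. The CDR3 sequences below are those of 1 clone with the most Tfh-like cells in each tumour, to show how different they are:
combination 1, TRBV12-2+TRBV13-2 with TRBJ2-7: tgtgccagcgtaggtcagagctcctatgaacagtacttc
combination 2, TRBV12-2+TRBV13-2 with TRBJ2-5: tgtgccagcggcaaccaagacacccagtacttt
S. chamaejasme 1, TRBV31 with TRBJ2-3: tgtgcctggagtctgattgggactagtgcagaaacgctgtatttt
untreated 1, TRBV5 with TRBJ2-2: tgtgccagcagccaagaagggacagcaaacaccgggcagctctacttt
untreated 2, TRBV5 with TRBJ1-4: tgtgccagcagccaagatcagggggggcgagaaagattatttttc
The clone of combination 1 held 9 cells, of which 3 were Tfh-like, 4 had an Il17a, Il17f or Il22 UMI, 1 had a Foxp3 UMI and 1 was a comparator. The clone of combination 2 held 6 cells, with 3 Tfh-like, and 2 further clones of that tumour also had 3 Tfh-like cells. The beta and alpha CDR3s of the clone shown occurred in 7 cells there once TRBV13-2 and TRBV12-2+TRBV13-2 were counted as the same segment. The clone definition keeps those names apart, so clone sizes and sequence sharing for that segment may be undercounted. It does not read the alpha chain, so it may also join cells of different clones. Among cells with a TRA CDR3, the most common one was in 5 of 8 for the clone of combination 1 and 7 of 9 for untreated 2. It was in 6 of 6 for the clone of combination 2, 4 of 4 for S. chamaejasme 1 and 3 of 3 for untreated 1. The clone of the S. chamaejasme tumour held 4 cells and that of untreated 1 held 3, and every one of those cells was Tfh-like. The clone of untreated 2 held 9 cells, with 5 Tfh-like and 4 positive for type 17 cytokine transcripts.

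The sequence of combination 2 recurs in a group of receptors with the same segments, which was picked out after the values were seen and is given as a description. It pairs TRBV13-2 (alone or in the composite name TRBV12-2+TRBV13-2) and TRBJ2-5 in a TRB CDR3 of 33 bases with TRAV4-2 and TRAJ32. The TRA CDR3 was not picked by length and had 45 bases in all 40 cells. Capitals mark the positions at which the sequences of the group differ:
combination 2, beta: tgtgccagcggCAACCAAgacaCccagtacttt
combination 2, alpha: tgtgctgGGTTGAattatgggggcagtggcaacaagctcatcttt
S. chamaejasme 1 and untreated 2, beta: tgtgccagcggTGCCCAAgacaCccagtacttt
S. chamaejasme 1 and untreated 2, alpha: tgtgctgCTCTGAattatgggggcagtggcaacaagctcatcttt
untreated 2, beta: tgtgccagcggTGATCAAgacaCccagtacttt
untreated 2, alpha: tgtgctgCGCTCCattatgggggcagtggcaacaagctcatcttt
combination 1, beta: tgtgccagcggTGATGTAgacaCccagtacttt
combination 1, alpha: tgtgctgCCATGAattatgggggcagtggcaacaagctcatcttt
The group held 40 cells from all 5 tumours, with 11 TRB and 11 TRA sequences in 17 pairs. The last 32 bases of the TRA CDR3 were the same in every cell, but every cell was picked for TRAJ32 and TRBJ2-5. A J segment forms the end of its CDR3, so shared end bases follow from that choice and are not read as a result. Tfh-like cells made up 13 of the 40, comparators 18, and cells with type 17 cytokine transcripts 9, while no Foxp3-positive and no CD8 T cell belonged to it. As shares of each kind of cell these are 1.77% of Tfh-like cells, 0.178% of comparators and 1.04% of type 17 cells. By tumour, the Tfh-like members of the group numbered 3 and 3 in the combination tumours, 2 in the S. chamaejasme tumour, and 0 and 5 in the untreated tumours. The invariant alpha chain of natural killer T cells, TRAV11 with TRAJ18, occurred in 0 of 734 Tfh-like cells and 40 of 10087 comparators. It also occurred in 4 of 862 type 17 cells and 1 of 3429 CD8 T cells. The chain was rare in every kind of cell, so nothing is read from its absence in Tfh-like cells.

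The RNA libraries held 22590 barcodes and 97967927 UMIs, of which 21549 barcodes were kept, with a minimum of 300 detected genes and a mitochondrial share of UMIs up to 10%. No barcode of a Tfh-like cell was shared between libraries. Summed over Tfh-like cells, the libraries gave 1151647 and 1089327 UMIs in the combination, 614444 in S. chamaejasme, and 317944 and 812840 in the untreated group. The median Tfh-like cell had 4738 UMIs and the median comparator 4319, and 4.77% and 3.18% of them had 2 or more productive TRB chains. Levels below are CPM, the UMIs of a gene scaled to 1000000 UMIs of the library's summed cells. Of 10 listed B cell transcripts, 7 had UMIs in Tfh-like cells, and the list summed to 99.0 and 83.5 CPM in the combination, 103 in S. chamaejasme, and 44.0 and 113 in untreated libraries. Ighm made up most of it, at 37.7 to 99.7 CPM, while Ms4a1 was at 0. Of 7 natural killer and innate lymphoid transcripts 3 had UMIs, the list summed to 0 to 12.2 CPM, and Ncr1 and Klrb1c were at 0. Their part in the results was not tested. Cytotoxic transcripts were uneven: the summed list of CD8 and cytotoxic markers stood at 156 and 537 CPM in the combination, 68.4 in S. chamaejasme, and 865 and 23.4 CPM in the untreated libraries. Of these, Gzma gave 131 UMIs in untreated 1 alone, and Ccl5 gave 501 UMIs in combination 2.

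Most listed genes of the Tfh program that the rule did not read were higher in these cells than in the comparators. Lef1, Il6ra and Il21r were among the exceptions, and Cd40lg was near the comparators. Cd4 had a UMI in 63.5% of Tfh-like cells and 42.5% of comparators, and Cd3e in 98.0% of Tfh-like cells. Since the same cells' transcripts chose the members, levels against the comparators are a description, with no test. In that comparison 32.8% of 8306 genes passed an adjusted p of 0.05 in edgeR, and 32.5% were higher and 8.74% lower in all 5 libraries; nothing is read from these shares. Log2 differences below are Tfh-like minus comparator from the fit with library as a block, with standard errors.

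Among the transcription factors, 8 of 11 genes had a positive difference, with a median of 1.01 beside -0.01 over all genes. Bcl6, the lineage factor, had 65.1 and 63.3 CPM in Tfh-like cells of the combination, 79.8 in S. chamaejasme, and 78.6 and 118 in the untreated libraries, against 16.0 and 16.3, 16.3, and 33.9 and 28.7 CPM in the comparators. Every library was higher in Tfh-like cells, by 1.67 ± 0.13 on the log2 scale. Maf, which drives Il21 and Il4 in helper cells, differed by 1.93 ± 0.08, Pou2af1, the OCA-B coactivator, by 2.75 ± 0.23, and Hif1a, the oxygen-sensing factor, by 1.49 ± 0.07. Batf and Irf4, partner factors of activated T cells, differed by 1.21 and 1.01, and Tcf7, which acts early in Tfh cells, by 0.46. The negative differences were Lef1 (-2.06 ± 0.09), Klf2 (-2.08 ± 0.12), the quiescence and egress factor that opposes Tfh differentiation, and Prdm1 (-1.82 ± 0.36), which encodes Blimp-1, the antagonist of Bcl6. Prdm1 rests on 12 Tfh-like cells with a UMI.

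Of the receptors and surface proteins, 21 of 24 genes were positive, with a median of 1.40. Cxcr5 had 58.2 and 59.7 CPM in Tfh-like cells of the combination, 87.9 in S. chamaejasme, and 28.3 and 46.8 in untreated, against 5.80 and 5.97, 8.62, and 4.74 and 7.78 CPM in the comparators. That is a difference of 2.85 ± 0.16, although a Cxcr5 UMI was found in only 22.9% of Tfh-like cells and 2.52% of comparators. Cd200, an inhibitory ligand named as a marker of these cells, had 197 and 176 CPM in the combination, 169 in S. chamaejasme, and 217 and 212 in untreated Tfh-like cells. The comparators had 27.5 and 35.8, 23.1, and 32.0 and 41.8 CPM, a difference of 2.32 ± 0.11. Icos, the costimulator that sustains Tfh cells, differed by 1.36 ± 0.08 and had a UMI in 90.1% of Tfh-like cells. Sh2d1a, the adaptor SAP needed for contact with B cells, differed by 1.72 ± 0.08, Btla by 1.42 ± 0.13, and Izumo1r, the folate receptor FR4, by 1.39 ± 0.09. S1pr2, which retains cells in the germinal centre, differed by 1.66 ± 0.27 from 44 Tfh-like cells with a UMI. The IL-21 receptor gene Il21r (-0.81 ± 0.08) and Il6ra (-0.98 ± 0.11), for the receptor of interleukin-6, were lower in Tfh-like cells in all 5 libraries. Cd28 (0.11 ± 0.07) and Cd84 (-0.26 ± 0.12) lay near the level of the comparators.

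Of the helper cytokines and ligands, 9 of 14 genes were positive, with a median of 0.22. Il4 had 122 and 95.5 CPM in the combination, 65.1 in S. chamaejasme, and 97.5 and 36.9 in untreated Tfh-like cells, against 9.04 and 13.8, 24.8, and 5.83 and 12.1 CPM in the comparators. This came from 102 Tfh-like cells, of which 53 also had an Il21 UMI. Tnfsf8, the CD30 ligand, held a narrow range of 467 to 602 CPM over the 5 Tfh-like sums and differed by 1.87 ± 0.08. Tnfsf11, or RANKL, differed by 1.43 ± 0.17 and Tnfsf14, or LIGHT, by 1.71 ± 0.28. Cd40lg, the ligand through which Tfh cells license B cells, had 257 and 244, 291, and 151 and 299 CPM in Tfh-like cells and differed by only 0.05 ± 0.10. Ifng was uneven, with 20.0 and 16.5 CPM in the combination, 35.8 in S. chamaejasme, and 170 and 6.15 in untreated Tfh-like cells, where untreated 1 also had the most Gzma. Cxcl13, the B cell chemokine made by human tumour Tfh cells, had a UMI in 7 Tfh-like cells. Il5, Il13 and Il3 were at 0 UMIs in all 5 Tfh-like sums.

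**Figure D1:**
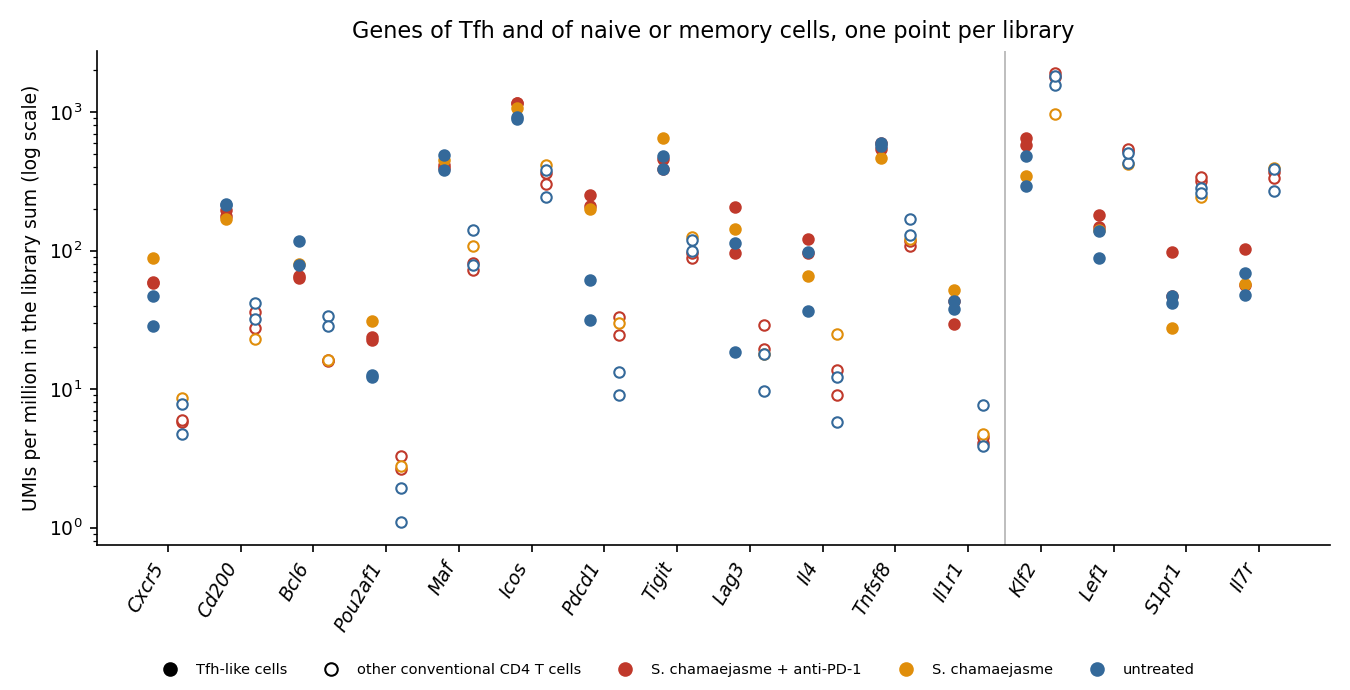
Level of 16 genes in the summed Tfh-like cells (filled points) and comparators (open points) of each library, as CPM on a log axis. Each point is 1 library, coloured by treatment, and the line separates Tfh and activation genes from naive and memory genes: for Cxcr5 the filled points lie between 28.3 and 87.9 and the open ones between 4.74 and 8.62.

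The inhibitory receptors Tigit (1.90 ± 0.08), Lag3 (2.24 ± 0.18) and Ctla4 (1.65 ± 0.07) were higher in Tfh-like cells than in comparators in all 5 libraries. This was not particular to Tfh-like cells. The list of inhibitory receptors and exhaustion genes summed to 3248 to 4069 CPM in them and 1562 to 1962 CPM in comparators. Foxp3-positive cells had 4093 to 4803 CPM and cells with type 17 cytokine transcripts 4065 to 4760 CPM. Of the genes of naive and resting memory cells, 12 of 16 were negative, with a median of -1.69. Il7r, the interleukin-7 receptor, differed by -2.65 ± 0.11, S1pr1, the exit receptor of lymphoid tissue, by -2.73 ± 0.14, and Igfbp4, a secreted binding protein abundant in resting CD4 cells, by -4.45 ± 0.19. Genes of other helper states were mixed. Of 9 type 17 genes tested, 7 were positive, among them Il1r1 (2.85 ± 0.20), the interleukin-1 receptor, Ccr6 (2.25 ± 0.28) and Ahr (1.01). Of 13 Th1 genes, 2 were positive and the median was -0.79. Among regulatory T cell genes, Ikzf2, which encodes Helios, had a UMI in 47.0% of Tfh-like cells, 12.7% of comparators and 71.5% of Foxp3-positive cells. Il2ra, which encodes CD25, had one in 2.86% of Tfh-like cells, 5.19% of comparators and 45.3% of Foxp3-positive cells. The Tfh surface list was not particular to Tfh-like cells: its summed level was 6039 to 7825 CPM in them, 5661 to 7002 CPM in Foxp3-positive cells, 4643 to 6511 CPM in cells with type 17 cytokine transcripts and 2686 to 3091 CPM in comparators.

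The genes with the largest differences were mostly of low level. The 10 highest in Tfh-like cells were Gfra4 (4.43 ± 0.21), Angptl2 (3.47 ± 0.28), Smtn, Il9r (3.25 ± 0.31), Cebpa (3.22 ± 0.26), Cacna1s, Gpm6b (3.17 ± 0.16), Sccpdh, Klhl4 and Stx11. Gfra4, a receptor subunit for the neurotrophic factor persephin, had 49.5 and 62.4 CPM in the combination, 76.5 in S. chamaejasme, and 18.9 and 43.1 in untreated Tfh-like cells, and 1.40 to 3.61 CPM in the comparators. Il9r encodes the interleukin-9 receptor and Gpm6b a membrane glycoprotein of the proteolipid family. The 10 lowest were Atp8b4, Pdlim4, Igfbp4, Rgmb, Cd55, Rapgef4, Lmna, Treml2, Sema4a and Hotairm1, with differences of -5.55 to -3.97. Glycolysis genes leaned upward, with 15 of 19 positive and a median of 0.61: Gapdh differed by 0.77 ± 0.07, while Ldha, the lactate dehydrogenase subunit, lay at 0.01 ± 0.07 and the glucose transporter gene Slc2a3 at -1.33 ± 0.28.

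The 2 ways into the rule picked partly different cells. Of the 734, 440 entered by Tox2 and Tbc1d4 alone, 170 by Il21 alone and 124 by both, and of the 294 with Il21, 165 had a single UMI of it. Levels of both genes were compared in cells just inside the limit, just outside it, and with none of the 3 transcripts. Cd200 stood at 211 CPM in the 102 cells with exactly 1 Il21 UMI and no Tox2 and Tbc1d4 pair, and at 143 CPM in the 128 with exactly 1 UMI each of Tox2 and Tbc1d4. It stood at 99.0 CPM in the 424 comparators with Tox2 only, 108 in the 998 with Tbc1d4 only, and 18.7 in the 8665 with none of the 3 genes. Cxcr5 followed as 58.2 and 44.7 CPM inside, and 47.2, 21.0 and 2.83 CPM outside. Cd200 was lower in both sets just outside than in both sets just inside, while Cxcr5 in the cells with Tox2 only lay between the sets inside. The cells with none of the 3 transcripts were lowest in both genes.

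Between the arms, 2.15% of 3209 genes passed an adjusted p of 0.05, 1.06% higher and 1.09% lower in cells in by Il21 alone, which is given as a description because the arms were cut by transcripts of the same cells. Cells in by Il21 alone had more Hspa1a, an inducible heat shock chaperone, at 2577 ± 1058 CPM (SD, n = 5 libraries) against 970 ± 339 in cells in by Tox2 and Tbc1d4 alone, a log2 difference of 1.41 ± 0.11. Myc (1.38 ± 0.24), Jun (0.88 ± 0.10) and Cd200 (0.81 ± 0.17) were also higher in all 5 libraries. Il4 averaged 172 ± 128 CPM against 54.9 ± 33.5 and was higher in 4 of 5. Ramp3, which modifies the calcitonin receptor family, ran the other way at 246 ± 72.2 against 620 ± 111 CPM (-1.30 ± 0.15), as did Ifnar1, a chain of the type I interferon receptor, at 54.2 ± 26.1 against 134 ± 12.3 CPM. Bcl6 (0.05 ± 0.22), Maf (0.15 ± 0.15), Cxcr5 (0.29 ± 0.30) and Tnfsf8 (0.03 ± 0.11) lay close together in the arms.

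As a share of conventional CD4 T cells, Tfh-like cells were lower in each treated tumour than in both untreated ones, in a design too small for a test to pass; as a share of all T cells the groups overlapped. They made up 6.29% and 6.47% of conventional CD4 T cells in the combination tumours, 5.88% in the S. chamaejasme tumour, and 7.27% and 9.17% in the untreated tumours. The Wilson 95% intervals were 5.48% to 7.22% and 5.62% to 7.44% in the combination, 5.01% to 6.89% in S. chamaejasme, and 5.66% to 9.28% and 7.9% to 10.6% in untreated, and they cover counting error only. The mean was 6.38% ± 0.126 in the combination and 8.22% ± 1.34 in untreated (SD, n = 2 each), a difference of -1.84 percentage points. The groups did not overlap, and the two-sided exact permutation p was 0.333, the smallest that 2 against 2 libraries can give. With every cell thinned to 2000 UMIs the shares were 2.44% and 3.29% in the combination, 3.47% in S. chamaejasme, and 3.66% and 4.66% in untreated. Of all kept cells with a TRB contig, Tfh-like cells were 4.41% and 4.42% in the combination, 3.74% in S. chamaejasme, and 4.12% and 6.45% in untreated tumours, so that both combination tumours lay above untreated 1. Shallower cells left out for the thinned shares were 1.88% and 1.76%, 7.60%, and 3.20% and 2.54% of kept cells.

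The 2 arms of the rule differed in this. Cells with an Il21 UMI were 2.09% and 2.37% of conventional CD4 T cells in the combination, 2.30% in S. chamaejasme, and 3.38% and 4.64% in untreated tumours. Cells with both Tox2 and Tbc1d4 were 5.07% and 5.37%, 4.52%, and 5.14% and 6.19%. As background, 0.292% to 0.484% of CD8 T cells had an Il21 UMI, at median depths of 4018 to 5830 UMIs. Cells in by Il21 alone were 19.5% and 16.9% of Tfh-like cells in the combination, 23.1% in S. chamaejasme, and 29.3% and 32.5% in untreated tumours.

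Il21 was therefore also compared over all conventional CD4 T cells, Tfh-like cells and comparators summed together, a set whose choice did not read Il21. By the rule no comparator has an Il21 UMI, so every UMI of this sum lies in the Il21-positive cells counted above. The comparison was added after seeing the data and is not separate from those shares. Il21 had 7.13 and 10.0 CPM (114 and 147 UMIs) in the combination, 11.7 CPM (108 UMIs) in S. chamaejasme, and 20.2 and 22.4 CPM (62 and 168 UMIs) in untreated tumours. Both combination libraries and the S. chamaejasme library lay under both untreated ones. Il21 fell in the combination against untreated by 1.37 ± 0.18 on the log2 scale (edgeR quasi-likelihood test, Benjamini-Hochberg adjusted p = 0.00612). It also fell in S. chamaejasme against the same untreated libraries, by 0.98 ± 0.23 (edgeR adjusted p = 0.0365; adjusted p = 0.116 in DESeq2). S. chamaejasme is 1 library, assumed here and below to vary like the other groups. A sum over a population cannot tell fewer Il21-positive cells from less Il21 per cell. In cells with type 17 cytokine transcripts, which the rule leaves out, the share with an Il21 UMI was 13.4% and 6.80% in the combination, 3.01% in S. chamaejasme, and 5.05% and 4.96% in untreated tumours.

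**Figure D2:**
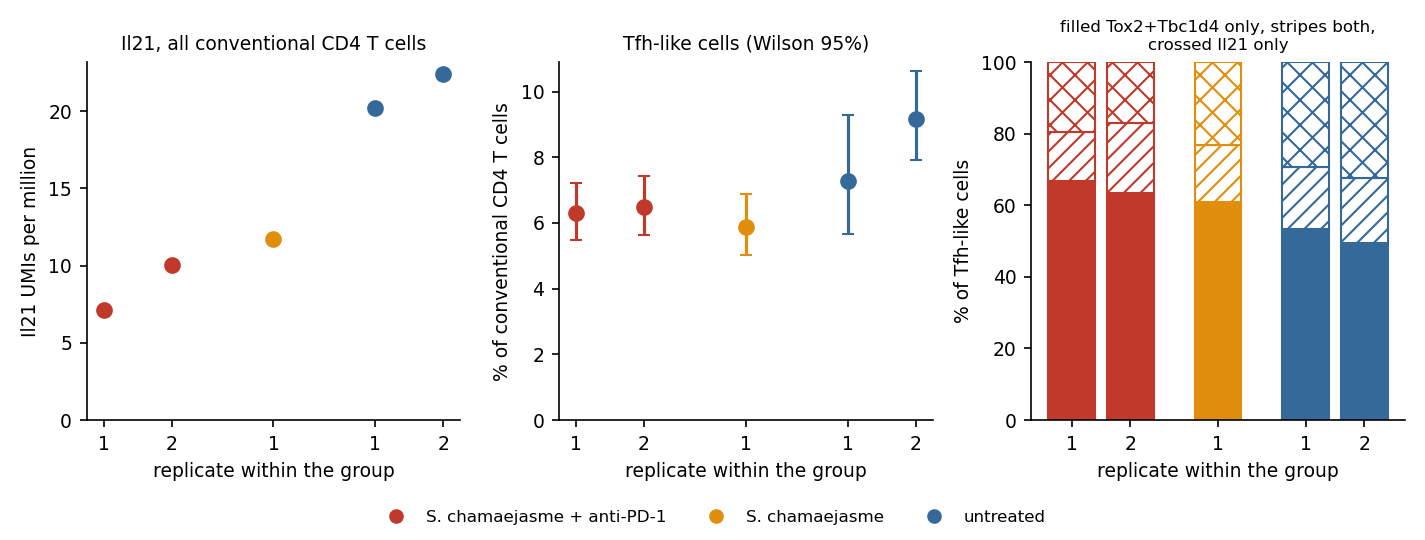
Left, Il21 CPM over all conventional CD4 T cells; middle, Tfh-like cells as a percentage of conventional CD4 T cells with Wilson 95% intervals; right, the ways into the rule as percentages of Tfh-like cells. Each point or bar is 1 library: Il21 lies at 7.13 to 11.7 in the treated libraries and at 20.2 and 22.4 in the untreated ones.

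Within Tfh-like cells, the treatment contrasts asked which genes changed inside the state; batch and treatment cannot be told apart, since the labels give no batch. Against untreated, the combination changed 27 of 7789 genes (0.347%) at an edgeR adjusted p under 0.05, with 8 higher (0.103%) and 19 lower (0.244%). The S. chamaejasme library changed 12 (0.154%), with 3 higher (0.0385%) and 9 lower (0.116%), against the same untreated libraries. The combination against S. chamaejasme gave 0 of 7789 genes (0%) in edgeR, with 449 at an unadjusted p under 0.05, and 2 in DESeq2. Without either combination library, 1 gene was called against untreated and none of the 27, although all 27 kept their direction; 449 were called without untreated 1 and 310 without untreated 2.

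Pdcd1, the gene for PD-1, was 1 of 2 genes on the Tfh lists that changed in the combination. In Tfh-like cells it had 211 and 253 CPM in the combination, 200 in S. chamaejasme, and 31.4 and 61.5 in untreated tumours, with UMIs in 67 and 85, 44, and 6 and 26 cells. The groups did not overlap, and 35.3% and 46.4% of Tfh-like cells in the combination had a Pdcd1 UMI, 30.8% in S. chamaejasme, and 10.3% and 16.2% in untreated. It rose in the combination by 2.05 ± 0.25 on the log2 scale (edgeR adjusted p = 0.00497) and in S. chamaejasme by 1.85 ± 0.30 (edgeR adjusted p = 0.0376). In the comparators Pdcd1 had 24.6 and 32.9, 29.8, and 9.11 and 13.3 CPM, and rose in the combination by 1.24 (edgeR adjusted p = 0.00939) and in S. chamaejasme by 1.21 (edgeR adjusted p = 0.0161). There, 6.38% of 11132 genes were called in the combination (2.19% higher and 4.19% lower) and 8.32% in S. chamaejasme (3.84% higher and 4.48% lower). The difference between the 2 effects, 0.80 ± 0.26, did not pass the test (edgeR adjusted p = 0.628), and of 9849 genes tested for such a difference 0 passed (0%), with 649 at an unadjusted p under 0.05 and 0 in DESeq2. Over the 12 alternative settings that gave Pdcd1 an adjusted p it was called in 10, with values up to 0.560, and it was lost without either combination library; DESeq2 gave it no adjusted p. For S. chamaejasme it was called in 8 of 11 and lost without either combination library and with cells thinned to 2000 UMIs. Pdcd1 lies at chr1:94038305-94052553 on the minus strand.

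Over all genes, 0.103% were called higher and 0.244% lower in the combination, which is the background for the list counts here. Of the 11 transcription factors tested, 0 were higher and 0 lower in the combination, with a median log2 difference of -0.01 beside 0.00 over all genes. Bcl6 (-0.82 ± 0.22, edgeR adjusted p = 0.167) and Maf (-0.22 ± 0.16, edgeR adjusted p = 0.612) were among them. In the comparators Bcl6 fell in the combination by 0.95 (edgeR adjusted p = 0.00395), and the difference between the 2 effects was 0.10 ± 0.25 (edgeR adjusted p = 0.975). Of 25 surface genes, 2 were higher and 0 lower, Pdcd1 and Gpm6b, with a median of 0.30. Gpm6b had 83.4 and 98.2 CPM in the combination, 35.8 in S. chamaejasme, and 37.7 and 19.7 in untreated Tfh-like cells (log2 1.70 ± 0.30, edgeR adjusted p = 0.0334). Gpm6b was called in 7 of 12 alternatives, with log2 values of 1.13 to 2.82, and lost without either combination library, without untreated 2, with the Tox2 and Tbc1d4 arm only and with thinned cells. Cxcr5 (0.40 ± 0.26), Icos (0.23 ± 0.12) and Cd200 (-0.33 ± 0.17) gave no call. Of 14 helper cytokines and ligands none passed in either direction, Il4 (0.78 ± 0.33) and Tnfsf8 (-0.18 ± 0.14) included.

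Of 20 receptor signalling and immediate early genes, which a cell switches on soon after receptor signals or handling, 2 were higher and 1 lower in the combination, with a median of -0.09 and 9 positive. Beside these counts, 0.103% of all genes were called higher and 0.244% lower. The 2 genes of the list that rose were Fos and Jun, the subunits of AP-1. Fos had 1006 and 1140 CPM in the combination, 1074 in S. chamaejasme, and 399 and 498 in untreated Tfh-like cells. It rose by 1.11 ± 0.15 in the combination (edgeR adjusted p = 0.00815) and by 1.13 ± 0.17 in S. chamaejasme (edgeR adjusted p = 0.0362). Jun had 925 and 998, 877, and 510 and 376 CPM and rose in the combination by 1.01 ± 0.16 (edgeR adjusted p = 0.0204). In the comparators Fos also rose (0.83, edgeR adjusted p = 0.00254), while Jun differed by 0.27 (edgeR adjusted p = 0.135). Both genes are on the list of heat shock and dissociation genes, of which 2 of 16 were higher and 0 lower in the combination with a median of -0.11, and the part of cell handling in the result was not tested. The Jun call was also lost with cells thinned to 2000 UMIs.

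The gene of that list that fell was Nfkbia, which encodes the NF-kB inhibitor IkB alpha. It had 1500 and 884 CPM in the combination, 1574 in S. chamaejasme, and 2167 and 2747 in untreated Tfh-like cells (log2 -1.18 ± 0.20, edgeR adjusted p = 0.0283). The Nfkbia call was lost with DESeq2 and without either combination library. Gadd45b, a stress-response gene, had 516 and 382 CPM in the combination, 760 in S. chamaejasme, and 717 and 800 in untreated (log2 -0.89 ± 0.16, edgeR adjusted p = 0.0368), so that the S. chamaejasme library lay with the untreated ones. The other named genes that fell in the combination were Spata7 (-2.64), Sytl3 (-1.89), Tomm6 (-1.58), Ing2 (-1.41), Rab11fip1 (-1.31), Gramd3 (-1.24), Lars2 (-1.17) and Fam107b (-0.85), with edgeR adjusted p-values of 0.00209 to 0.0397. Lars2, which is also on the list of transcripts that vary with library quality, was called in 11 of 13 alternatives and Tomm6 in 7 of 12. The Tomm6 call was lost without untreated 2 as well as without either combination library, and those of Gramd3, Gadd45b and Fam107b without S. chamaejasme 1. With a Cd4 transcript required, the calls of Spata7, Tomm6, Rab11fip1 and Gadd45b were lost. Thinned cells lost those of Sytl3, Tomm6, Rab11fip1 and Gramd3. The Tox2 and Tbc1d4 arm only lost Sytl3, Ing2 and Gadd45b, and the Il21 arm only lost Spata7. Spata7 rests on 6 Tfh-like cells with a UMI in the combination and 12 in untreated.

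**Figure D3:**
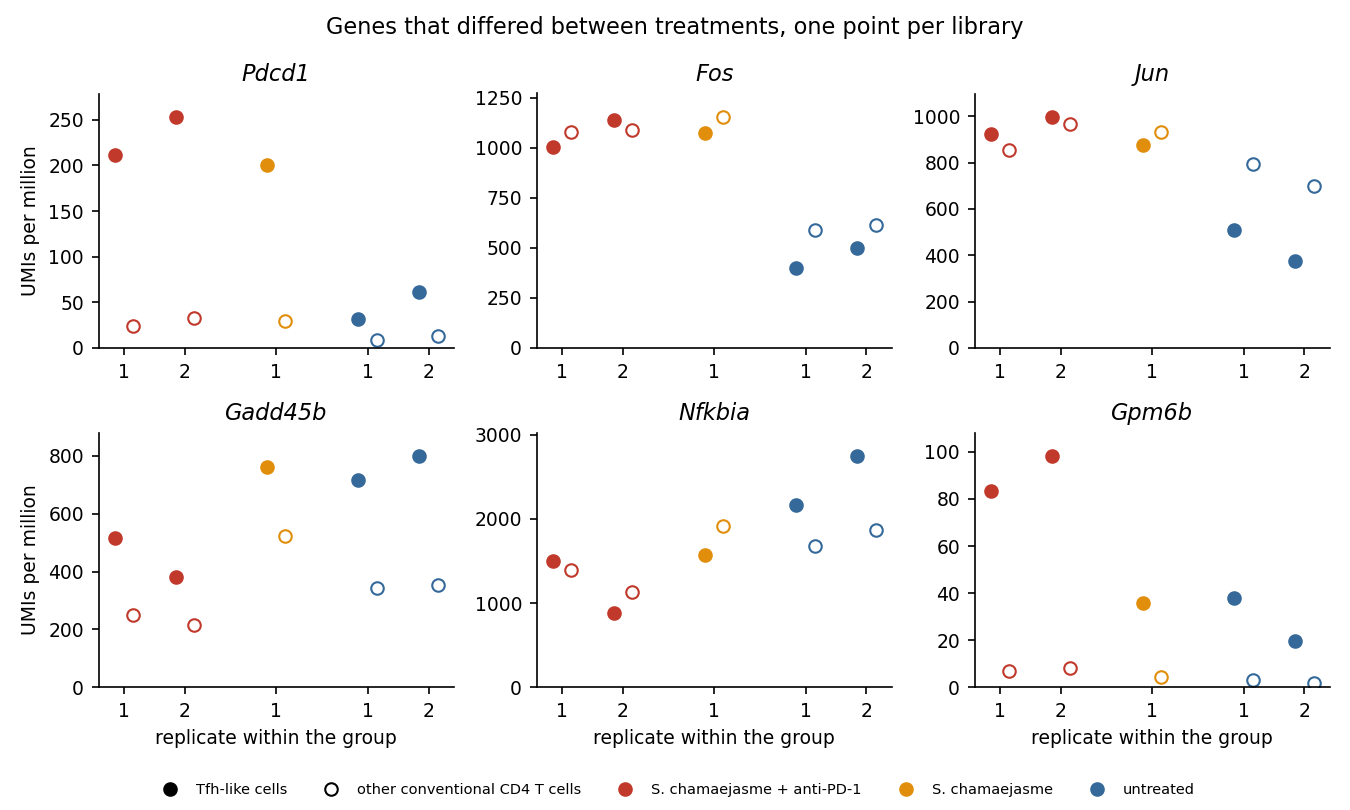
CPM of 6 genes in the summed Tfh-like cells (filled) and comparators (open) of each library, with the combination at the left and untreated at the right of each panel, and axes from 0. In Tfh-like cells Pdcd1 lies at 200 to 253 in the treated libraries and at 31.4 and 61.5 in the untreated ones.

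Gal, the neuropeptide galanin, had 73 UMIs from 5 cells in the combination and 0 in untreated. Counted in UMIs, its level in the combination was 12.3 times a floor of 3 UMIs over the untreated group (edgeR adjusted p = 0.0244). UMIs of the same cell are not independent, so with 5 cells this ratio sets no lower bound on the difference. The Gal call was kept in 8 of 12 alternatives and was lost without either combination library, with the Tox2 and Tbc1d4 arm only and with a Cd4 transcript required. AW011738 rose in the combination (1.44 ± 0.26, edgeR adjusted p = 0.0386) but was called in only 5 of 12 alternatives. That call was lost without either combination library, without S. chamaejasme 1, without untreated 2, with the Il21 arm only, with Cd4 required and with thinned cells.

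In S. chamaejasme against untreated, the named genes that rose were Pdcd1, Fos and Gadd45g, and those that fell were Lars2 and Ccr7. Lars2 is on the list of transcripts that vary with library quality. The Fos call in this contrast was lost with cells thinned to 2000 UMIs. Gadd45g had 164 CPM in S. chamaejasme and 44.0 and 41.8 in untreated Tfh-like cells (log2 1.83 ± 0.29, edgeR adjusted p = 0.0374), beside 63.4 and 92.7 CPM in the combination. Ccr7, the receptor that holds T cells in lymphoid tissue and keeps them out of follicles, had 171 CPM in S. chamaejasme and 557 and 395 in untreated Tfh-like cells (log2 -1.56 ± 0.25, edgeR adjusted p = 0.0372), beside 512 and 593 CPM in the combination. Without either combination library 0 genes were called in this contrast, and with the Il21 arm only the calls of Gadd45g, Fos and Ccr7 were lost.

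Transcripts that vary with library quality moved with treatment in these cells as in the comparators. AY036118 stood at 1000 and 666 CPM in the combination, 758 in S. chamaejasme, and 2456 and 3184 in untreated Tfh-like cells. In each comparison below, the 3 that fell were AY036118, Lars2 and Gm42418. Of the 4 listed transcripts 3 fell in the combination, where 0.244% of all genes were called lower, and 3 in S. chamaejasme, beside 0.116%. In the comparators of the combination, where 4.19% of genes were called lower, 3 of these transcripts fell. Their part in the other differences was not tested. Of the 25 interferon gamma and antigen presentation genes, 9 rose and 0 fell in comparators of the combination, where 2.19% of all genes were called higher. In Tfh-like cells, where 0.103% of genes were called higher, 0 of 23 passed, which is near that background, and no gene passed the test of the difference between the cell sets.

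The share of cells in expanded clones was higher for Tfh-like cells than for comparators in each tumour. A clone of 2 or more kept cells held 31.6% and 30.1% of Tfh-like cells in the combination, 36.4% in S. chamaejasme, and 34.5% and 35.6% in untreated tumours. The comparators had 5.41% and 5.71%, 14.8%, and 10.1% and 6.50%. Tfh-like cells were higher in 5 of 5 tumours, by 25.1 percentage points on average (two-sided exact sign-flip permutation test, p = 0.063, the smallest that 5 tumours allow). The S. chamaejasme comparators had the highest share, while the Tfh-like shares lay within a range of 30.1% to 36.4%. With comparators matched in depth to the Tfh-like cells, that comparator share was 9.09%, beside 10.3% in untreated 1. With the clonotypes of the authors' deposited table the Tfh-like shares were lower. They were 24.7% and 21.9% in the combination, 30.1% in S. chamaejasme, and 27.6% and 31.25% in untreated tumours. Comparators then had 4.21% and 4.35%, 12.5%, and 8.65% and 4.86%. The largest clone with a comparator in the S. chamaejasme tumour held 62 cells, as did the largest with a CD8 T cell there. Cells with type 17 cytokine transcripts had 34.0% to 60.6% in expanded clones and Foxp3-positive cells 6.73% to 13.3%.

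The clone partners of a cell are the other kept cells of its clone. The mean share of clone partners that were Tfh-like was 20.3% and 37.1% for Tfh-like cells of the combination, 31.4% for S. chamaejasme, and 35.0% and 38.8% for untreated. For comparators in expanded clones it was 18% and 16.0%, 6.53%, and 8.08% and 19.9%. The difference averaged 18.8 percentage points and was positive in 5 of 5 tumours (two-sided exact sign-flip permutation p = 0.063). Combination 1 was the weakest, with a gap of 2.28 points, and its gap was -1.11 points with the clonotypes of the authors' deposited table, -0.321 points without cells with 2 or more productive TRB chains, and -2.28 points with the Tox2 and Tbc1d4 arm only. With the Il21 arm only, untreated 1 was at -2.75 points. The exact permutation p was 0.125 in each of these 4 settings.

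**Figure D4:**
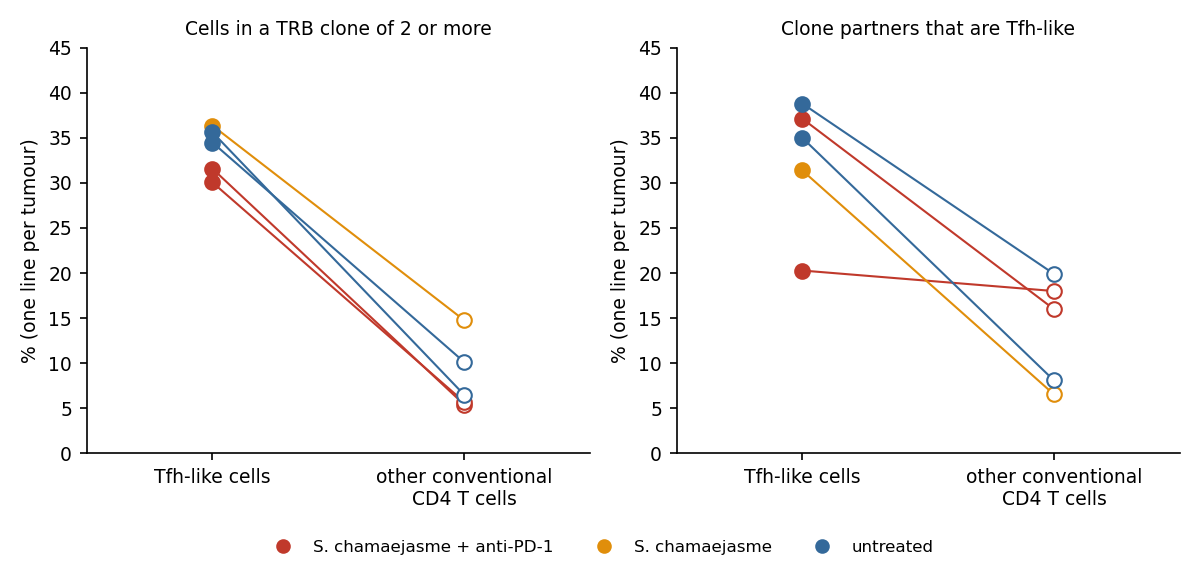
Left, percentage of cells in a TRB clone of 2 or more cells; right, mean percentage of a cell's clone partners that are Tfh-like. Each line is 1 tumour and joins its Tfh-like cells (filled) to its comparators (open): in both panels every line is lower at the comparators, and in the left one Tfh-like cells lie between 30.1% and 36.4% and comparators between 5.41% and 14.8%.

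The expanded clones were not of Tfh-like cells alone. The 734 cells fell into 669 clones, of which 179 were expanded and held 568 cells: 244 Tfh-like, 183 comparators, 126 with type 17 cytokine transcripts, 6 with Foxp3 and 9 with Cd8a or Cd8b1. A comparator was present in 111 of the 179 and a type 17 cell in 63, while 25 held Tfh-like cells only and 49 held 2 or more of them. Type 17 cells made up 28.7% and 16.5% of the clone partners of Tfh-like cells in the combination, 19.4% in S. chamaejasme, and 34.7% and 22.6% in untreated tumours. Of the clone partners of comparators they made up 13.6% and 9.01%, 18.1%, and 38.5% and 12.9%, so that Tfh-like cells were higher in 4 of 5 tumours and lower in untreated 1. Foxp3-positive cells made up 0% to 3.40% of the partners of Tfh-like cells and 2.67% to 6.84% of those of comparators. For CD8 T cells the shares were 0% to 4.24% and 1.54% to 11.8%, with the highest comparator value in untreated 1.

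**Figure D5:**
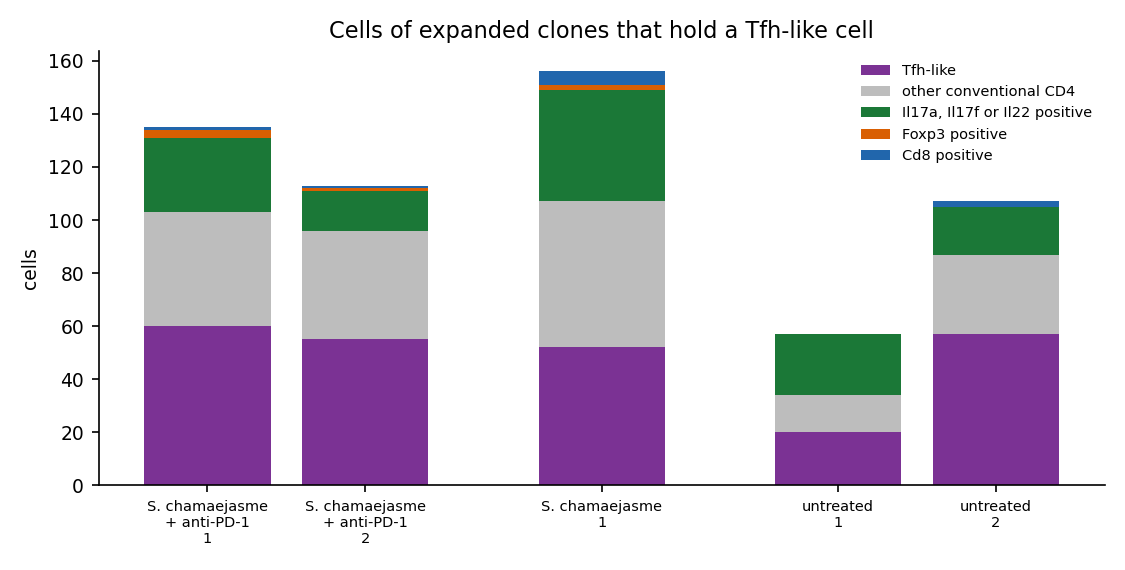
Number of cells, by class, in the expanded clones that hold at least 1 Tfh-like cell, 1 bar per tumour. Tfh-like, comparator and type 17 cells fill most of every bar, and over all 5 tumours Foxp3-positive and Cd8-positive cells number 6 and 9 of 568.

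Of the beta segments, TRBV13-2 (alone or in the composite name) was used by 15.8% and 12.6% of Tfh-like cells in the combination, 16.8% in S. chamaejasme, and 22.4% and 18.1% in untreated tumours. Comparators used it at 12.9% and 12.2%, 11.8%, and 12.6% and 12.8%. It was higher in Tfh-like cells in 5 of 5 tumours (4.65 percentage points on average, two-sided exact sign-flip permutation p = 0.063), the only one of 8 segments compared to be so. Adjusted over the 8 segments (Benjamini-Hochberg) the exact permutation p was 0.5. Of 664 distinct TRB sequences of Tfh-like cells, 19 (2.86%) were found in 2 or more tumours, beside 73 of 9652 (0.756%) in comparators. Tfh-like cells of 2 tumours shared 5 of them. One, TRBV17 with TRBJ1-1 and the CDR3 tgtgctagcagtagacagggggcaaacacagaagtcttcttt, held 11 cells in S. chamaejasme 1 and 17 in untreated 1, of which 2 were Tfh-like. The cells of that TRBV17 sequence had no TRA CDR3 in common between the tumours. Another, shown above for S. chamaejasme 1 and untreated 2, came with the same TRA CDR3 in both tumours, and alone of the 5 did so.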

How the data were processed

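The matrices are deposited as UMI counts without normalization, which the authors made with Cell Ranger 3.1.0 on mm10 per the submitters' processing notes, and tables of receptor contigs with read and UMI counts, also deposited. Libraries came from a 10x 5′ kit, per the labels' protocols. Barcodes below 300 detected genes or above a mitochondrial share of 10% were dropped. No doublet caller was run; cells with 2 or more productive TRB chains were left out as an alternative. Raw counts were summed per library over Tfh-like cells and over comparators and tested with edgeR 4.0.16 in R 4.3.3 (quasi-likelihood, TMM, filterByExpr, Benjamini-Hochberg over all genes tested), with all 5 libraries in the fit; DESeq2 1.42.0 was an alternative. Treatment contrasts had no block, and the comparison of Tfh-like cells with comparators had library as a block. Receptor results were compared per tumour by exact sign-flip tests. The scripts were tested on simulated data. Named genes are, per contrast, the 10 largest log2 differences in each direction among called genes whose groups do not overlap, leaving out genes of the rule, mitochondrial and ribosomal protein genes, receptor segments and genes without a symbol, plus any gene of the Tfh and helper cytokine lists; other genes named were chosen after their values were seen. The members and lists were chosen with earlier results of these data known. The fits of the combination against S. chamaejasme, of treatment in comparators, of Il21 over all conventional CD4 T cells and between the arms were added after seeing the data. Coordinates are from GENCODE for GRCm38. Replicate numbers follow accession order and pair nothing. Intervals cover counting error only. Some genes that the naming rule covers are not reported here.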

Additional observations from a re-analysis of the deposited data

How the results depend on the processing

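In the combination against untreated, 27 genes were called; the count was 199 with no filter on low counts, 54 with the Il21 arm only and 42 with cells thinned to 2000 UMIs, and 1 to 449 with a library left out. It was 1 without either combination library and none of the 27, 449 without untreated 1 and 310 without untreated 2. All 27 kept their direction in each setting that tested them. In S. chamaejasme against untreated (12), the count was 82 with no filter, 24 with DESeq2, 23 with a Cd4 transcript required and 23 with thinned cells, and 0 to 321 with a library left out. In the combination against S. chamaejasme (0), it was 42 with no filter, 2 with DESeq2, 4 without cells with 2 or more TRB chains, 4 with the Il21 arm, 7 with the Tox2 and Tbc1d4 arm, 8 with Cd4 required, and 0 to 135 with a library left out. The difference in effect between Tfh-like cells and comparators (0) gave 4 with depth-matched comparators and 15 to 164 with a library left out. Tfh-like cells against comparators gave 2727 called genes, 1611 with depth-matched comparators, and 2117 to 2952 with a library left out; without the replicate block it gave 1972. No paired analysis was possible because, for the treatment contrasts, replicate numbers follow accession order and the groups come from different tumours. The fall of Il21 over all conventional CD4 T cells in S. chamaejasme was -0.96 with DESeq2 (adjusted p = 0.116), and with a library left out it ranged from -1.07 to -0.83; in the combination that range was -1.60 to -1.15. The cause of these shifts was not tested. The share of Tfh-like cells stayed lower in the combination, by -2.67 to -0.442 percentage points over the alternatives and -2.79 to -0.886 with a library left out. The gap in clonal expansion ranged from 20.2 to 26.7 points, and from 24.1 to 26.0 with a tumour left out; that in clone partners from 10.1 to 19.3, and from 16.8 to 23.0. For named genes called in the combination, 144 alternative values kept the call and 64 lost it, with no change of sign; DESeq2 gave no adjusted p for 46 named or listed genes.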
